A study of Mus musculus with 3 samples.

Results

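The cells described here are macrophages of the mouse aortic adventitia, the connective tissue sheath around the aorta, with RNA of Lyve1, Folr2 and Cd163 and little RNA of MHC class II. They were chosen by measured values. A barcode needed at least 500 UMIs (unique molecular identifiers, each standing for 1 captured RNA molecule), at least 300 genes and at most 10% mitochondrial UMIs. It then needed at least 0.3% of its UMIs on C1qa, C1qb and C1qc together, under 1% on Col1a1, Col1a2, Dcn and Lum, and under 1% on H2-Aa, H2-Ab1 and H2-Eb1. Lastly, at least 3 of the 6 markers Lyve1, Folr2, Cd163, Timd4, Cd209f and Fcna had to have at least 1 UMI. The rule found 4469 such cells among 42779 barcodes that passed the cell filter. They were 2140 of 13861 barcodes in the Vehicle library, 782 of 9899 in the AngII library and 1547 of 19019 in the AngII_VWR library.

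Single cells came from the peeled adventitia of thoracic and abdominal aorta. Mice of the Vehicle group received saline, those of the AngII group received angiotensin II, and those of the AngII_VWR group received the same hormone and had voluntary wheel running. Angiotensin II is the peptide hormone of the renin-angiotensin system that raises blood pressure, and both AngII and AngII_VWR mice carried it. Each group is 1 library, and the design text counts 3 mice a group. Strain, age, sex, dose, length of treatment and the way the 3 mice entered a library are not given in the sources used here, and running without the hormone is not among the groups. With 1 library a group there is no test of a difference between groups. Intervals are 95% intervals that cover counting error only, and no value below says how mice of a group vary.

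Macrophages of this kind are long-lived tissue residents that are known to lie along blood vessels in many organs. Lyve1 binds hyaluronan, Folr2 is a folate receptor, Cd163 takes up haemoglobin bound to haptoglobin, Timd4 binds phosphatidylserine on dying cells, Cd209f is a C-type lectin and Fcna, ficolin A, is a lectin of the complement system. In mouse arteries, Lyve1-positive macrophages are known for clearing debris and for restraining collagen deposition by smooth muscle cells. Macrophages with high class II and Ccr2, the receptor that draws monocytes out of the blood, form the better known counterpart that present antigen and are renewed in part from monocytes.

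All 3 libraries went through the same warm enzyme digestion, per the labels' protocols, but differed in depth. The median resident macrophage held 14353, 16226 and 5925 UMIs in Vehicle, AngII and AngII_VWR, and the median mitochondrial share was 1.82%, 2.92% and 2.76%. RNA of other cell types in the members differed as well. Whether it was free RNA or came from doublets (barcodes that hold several cells), which were not removed, was not tested. Col1a1, Col1a2, Dcn and Lum, which the rule capped, are among the fibroblast markers summed here. The summed level of 7 fibroblast markers in the resident macrophages was 1073, 741 and 1958 CPM (UMIs of a gene scaled to 1000000 in all) in Vehicle, AngII and AngII_VWR, and that of 6 smooth muscle markers was 562, 76.5 and 136 CPM. The libraries shared between 44 and 80 barcode sequences a pair, and at most 2 of those were resident macrophages in both libraries of a pair.

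The rule asked for the markers of the label, so their levels are a description. In the summed UMIs, Lyve1 stood at 1297 CPM in Vehicle, 855 in AngII and 1508 in AngII_VWR, and Folr2 at 1337, 1109.9 and 1035 CPM. Cd163 stood at 760, 716 and 661 CPM. Collagen-high cells, barcodes with at least 3% of UMIs on the collagen set and under 0.1% on C1q, served as the background of free RNA: there Lyve1 was at 4.9, 3.1 and 13.3 CPM and Cd163 at 3.6, 2.0 and 5.7 CPM. The rarer markers were lower throughout. Timd4 was at 172, 96.8 and 94.5 CPM, Cd209f at 347, 256 and 184 CPM, and Fcna at 378, 212 and 258 CPM, and each was under 3 CPM in collagen-high cells of every library. Adgre1, Csf1r, Mertk and the other 7 markers of a 10-gene macrophage list were all at 20 CPM or more in each library.

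Marker lists of other cell types differed widely in level in these cells. Fibroblast and smooth muscle markers are given above. Ccr2, the monocyte receptor, was at 2.68 CPM in Vehicle, 21.9 in AngII and 9.62 in AngII_VWR, and the 6 monocyte markers together came to between 9.98 and 28.4 CPM. The lymphatic endothelial markers summed to 20.0, 113 and 46.8 CPM, where Lyve1 is not counted, and the 5 B cell markers to 187, 218 and 122 CPM, above the 36.2, 45.3 and 22.5 CPM of all other barcodes. The 6 neutrophil markers summed to at most 60.2 CPM, with Ly6g at 0 in every library. The 7 T cell markers summed to at most 11.4 CPM, the 5 mesothelial markers to at most 0.40 CPM and the 6 Schwann cell markers to at most 29.3 CPM. Haemoglobin and the haem enzyme Alas2 together were far higher in Vehicle, at 3618 CPM against 647 in AngII and 635 in AngII_VWR. That RNA sat in few cells. Of the 2140 Vehicle cells 31 had 1% or more of their UMIs on haemoglobin, and 10 of them held 71.0% of all haemoglobin UMIs of the group, while the median cell had 0.02%.

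**Figure D1:**
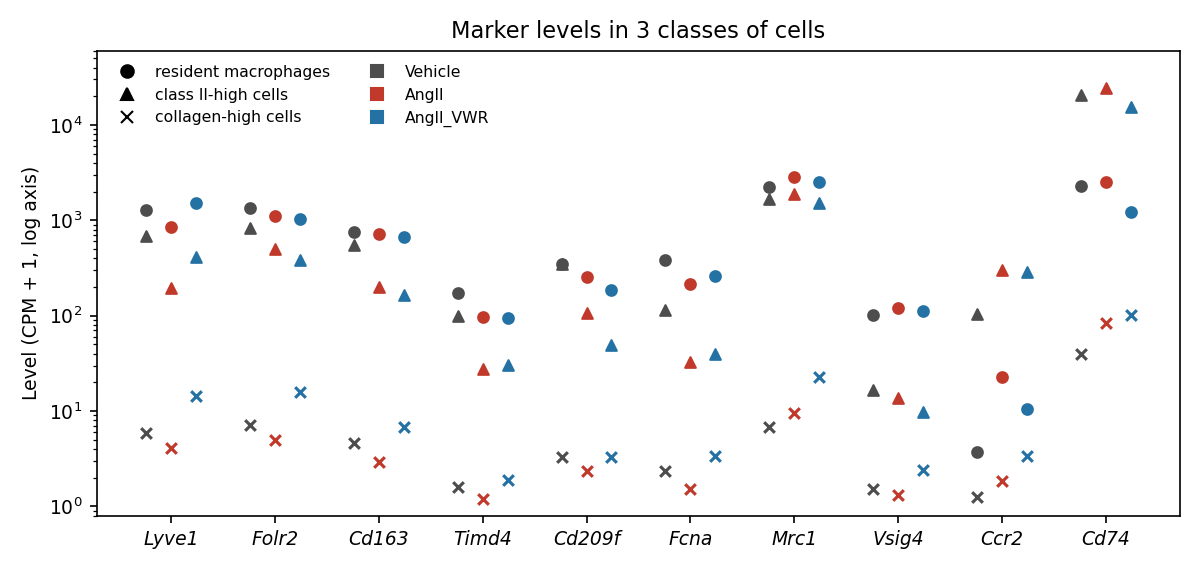
Level of marker genes in resident macrophages (circles), class II-high C1q-positive cells (triangles) and collagen-high cells (crosses) of the 3 libraries (colours), as CPM + 1 on a log axis. Each point is 1 library's summed UMIs. The 6 rule markers, Mrc1 and Vsig4 sit far above collagen-high cells in all 3 libraries, and Ccr2 and Cd74 sit higher in class II-high cells.

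Resident macrophages made up 76.6% of the C1q-positive cells of the Vehicle library (95% Clopper-Pearson interval 75 to 78.2), 37.9% of those of the AngII library (35.8 to 40.0) and 44.7% of those of the AngII_VWR library (43.0 to 46.4). C1q-positive cells are all barcodes that passed the cell filter, the C1q minimum and the collagen limit, 2794, 2065 and 3460 in number. The share was lower in both libraries with the hormone than in Vehicle. The ratio of AngII to Vehicle was 0.494 (0.455 to 0.537) and that of AngII_VWR to AngII was 1.18 (1.08 to 1.29). Since the rule counts markers with a UMI, deeper cells pass more easily, so every cell was also thinned to 2000 UMIs. The shares were then 60.2%, 22.4% and 33.5%, with ratios of 0.372 (0.334 to 0.413) and 1.496 (1.34 to 1.68). Thinning left out 45, 2 and 91 resident macrophages that had fewer UMIs.

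The difference between AngII_VWR and AngII depended on how members were counted. With at least 4 of 6 markers asked for, the ratio was 0.919, and over all filtered barcodes in place of C1q-positive cells it was 1.03. Over all filtered barcodes the share was 15.4% in Vehicle, 7.90% in AngII and 8.13% in AngII_VWR, and the interval of the AngII_VWR to AngII ratio ran from 0.944 to 1.12. With thinned cells the ratio over all barcodes was 1.31 (1.17 to 1.47). Class II-high cells, C1q-positive cells with 1% or more of UMIs on the 3 class II genes, took 15.5%, 50.02% and 21.6% of C1q-positive cells. The third class, C1q-positive cells with fewer than 3 markers and low class II, took 7.95%, 12.1% and 33.7%, and its median cell had 1700.5, 13619 and 3222.5 UMIs. The cells that missed the rule in AngII_VWR were thus shallower than its members. With every cell at 2000 UMIs their shares were 23.9%, 27.1% and 43.2%.

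**Figure D2:**
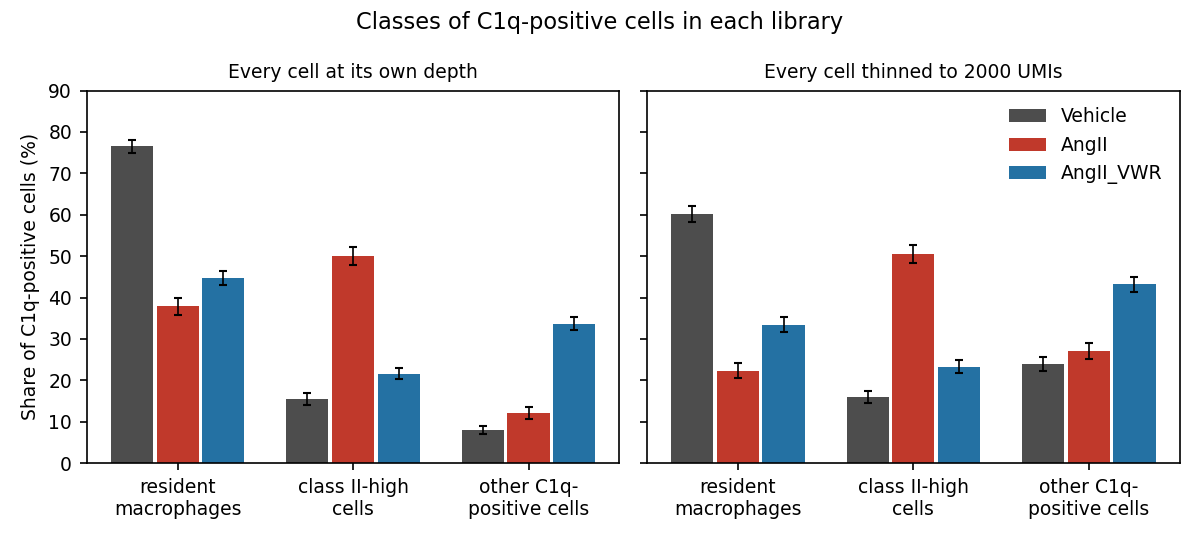
Share of C1q-positive cells in 3 classes in each library, at the cells' own depth (left) and with every cell thinned to 2000 UMIs (right). Bars are shares in percent and whiskers are 95% Clopper-Pearson intervals over cells. Resident macrophages take the largest share in Vehicle and class II-high cells the largest in AngII, in both panels.

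Cells at the edge of the rule were frequent. Cells with exactly 3 markers numbered 244, 214 and 672 in Vehicle, AngII and AngII_VWR, and C1q-positive cells with exactly 2 markers and low class II numbered 93, 126 and 557. At the class II limit, 68, 31 and 34 members had between 0.8 and 1% of UMIs on class II, and 65, 42 and 27 cells lay just outside, between 1 and 1.2%. The C1q limit cut few cells, with 16, 0 and 6 members between 0.3 and 0.4%. All 6 markers were found in 21.1% of Vehicle members, 14.1% of AngII members and 6.40% of AngII_VWR members. With the rule applied to cells thinned to 2000 UMIs, the shares with all 6 were 2.75%, 2.43% and 1.42%, with AngII_VWR lowest either way. AngII members were deeper than Vehicle members and had the lower share at their own depth.

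The markers were not spread evenly. In cells thinned to 2000 UMIs, Folr2 had a UMI in 88.2%, 82.9% and 83.2% of the members of Vehicle, AngII and AngII_VWR, against 1.5%, 0.7% and 3.2% of collagen-high cells. Lyve1 had a UMI in 83.5%, 70.5% and 88.6% of members, lowest in AngII. Cd163 was found in 66.0%, 61.7% and 60.9%. Timd4 was found in 27.7%, 16.5% and 17.0%, Cd209f in 22.2%, 17.4% and 16.5%, and Fcna in 40.9%, 27.8% and 32.5%. Without thinning, Timd4 was found in 75%, 51.3% and 32.6%. Mrc1, the mannose receptor, which the rule did not use, was found in 95.7%, 97.7% and 97.0% of thinned members. Vsig4, a receptor for complement C3 fragments that was not used either, was found in 11.3%, 15.1% and 13.2%, against at most 0.3% of collagen-high cells.

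Within the class, the markers went different ways with the amount of class II RNA. Members with under 0.1% of UMIs on class II were 69.6%, 65.3% and 77.4% of members in Vehicle, AngII and AngII_VWR. Their Lyve1 level was 1375, 925 and 1592 CPM, against 963, 604 and 944 CPM in members with 0.5 to 1% class II. Fcna was at 409, 234 and 273 CPM in the former and 283, 150 and 144 CPM in the latter. Cd209f was the other way round, at 273, 222 and 172 CPM in the members lowest in class II and 584, 310 and 219 CPM in the highest. Ccr2 too was higher with class II, at 1.76, 4.78 and 5.51 CPM against 6.53, 77.0 and 28.6 CPM. Mrc1 differed less, with 2255, 2927 and 2539 CPM in the lowest stratum and 2176, 2608 and 2501 CPM in the highest. For Lyve1, Fcna, Cd209f and Ccr2 the 3 libraries gave the same direction. The class II genes are part of the rule, so these values describe its inside.

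Set against class II-high cells of the same library, Vsig4 stood apart most, at 100, 118 and 110 CPM in the resident macrophages and 15.7, 12.8 and 8.76 CPM in class II-high cells. Emp1, a membrane protein, was at 830, 667 and 632 against 318, 280 and 264 CPM. Tns1, which links integrins to actin, was at 338, 307 and 349 against 166, 97.7 and 120 CPM. Fgfr1, a receptor for fibroblast growth factors, was at 213, 159 and 259 against 109, 56.0 and 101 CPM. Ltc4s, the enzyme that makes leukotriene C4, Pros1, a bridge between dying cells and Mertk, the lysosomal enzyme gene Hgsnat and the ribonuclease gene Rnase4 were also among the 10 highest. On the other side, Ccr2 was at 104, 298 and 287 CPM in class II-high cells, and Cd74, the class II invariant chain, at 20691, 24449 and 15438 CPM against 2278, 2503 and 1211 CPM in the resident macrophages. Resident macrophages were chosen on class II and on the markers, but class II-high cells on class II with no demand on the markers. Some class II-high cells thus carried the markers too. With class II under 2% allowed, members numbered 2364, 958 and 1661 in Vehicle, AngII and AngII_VWR, in place of 2140, 782 and 1547. The values above are descriptions of this choice of cells.

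The comparison of AngII with Vehicle asks what differed in these cells with the hormone. Among 3547 genes at 50 CPM or more in the higher library, 47 (1.33%) had 2 times the Vehicle level or more in AngII and 69 (1.95%) had 0.5 times that level or less, and the median gene differed by 0.03 on the log2 scale. Many of the lower genes were better represented in other barcodes: among the 3332 genes whose level in members was at least 0.5 times that of all other barcodes, 44 were higher (1.32%) and 17 lower (0.51%). Below, genes outside that subset are named as such. At 1.5-fold, 4.82% of genes were higher and 4.62% lower. The gene groups below use a lower limit, 20 CPM in the higher library. A gene past this limit in 1 library alone could only come out higher there. Such genes are counted in the groups, and not all of them are named below. Among the 6341 genes past the limit, 4.19% lay past 1.5-fold on the higher side and 5.27% on the lower side. By any amount, 55.8% were higher and 44.2% lower. These are the background for the groups, whose log2 ratios are of CPM + 1. The AngII library also enters the second comparison, so the 2 are not independent of each other.

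The highest ratios were those of the chemokine Ccl8 and of Il1b among genes at 100 CPM or more, while most chemokines were lower, as given below. Ccl8, a ligand that attracts monocytes and T cells, was at 298 CPM in Vehicle, 2015 in AngII and 659 in AngII_VWR, 6.76-fold higher in AngII than in Vehicle (6.61 to 6.92). In cells thinned to 2000 UMIs it had a UMI in 22.1%, 45.9% and 34.5% of members, against 6.5%, 8.8% and 6.9% of collagen-high cells. Il1b, the precursor of interleukin 1 beta, was at 189, 906 and 111 CPM, 4.80-fold higher in AngII (4.66 to 4.96), and was found in 11.2%, 41.5% and 9.7% of thinned members against at most 2.5% of collagen-high cells. AngII was thus the highest library for Il1b and AngII_VWR the lowest. Cxcl13, which attracts B cells, was at 2.21, 91.7 and 30.6 CPM, 41.5-fold higher in AngII (32.6 to 53.6) and had a UMI in 5.4% of thinned AngII members against 0.4% of collagen-high cells there; in Vehicle the level in collagen-high cells, 8.30 CPM, was above that in members.

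The other genes with the largest ratios on the higher side were of several kinds. Il10, an anti-inflammatory cytokine, was at 33.1, 113 and 62.9 CPM, 3.42-fold higher in AngII (3.16 to 3.71). Cd80, a co-stimulatory ligand for T cells, was at 63.3, 184 and 43.9 CPM. Ptger4, a receptor for prostaglandin E2, was at 52.3, 157 and 49.98 CPM. Clec4n, the receptor Dectin-2 that binds fungal mannans, was at 50.5, 168 and 112 CPM. The scaffold gene Mpp7 was at 110, 477 and 345 CPM and the myosin gene Myo1e at 152, 505 and 75.02 CPM. For Cd80, Ptger4 and Myo1e AngII_VWR lay below Vehicle, and for Il10, Clec4n and Mpp7 it lay between the other libraries.

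These differences were not seen in the resident macrophages alone. In class II-high cells Il1b was at 1045, 2436 and 930 CPM, higher than in the resident macrophages of every library, and Ccl8 at 410, 1608 and 276 CPM. Myo1e was at 162, 600 and 156 CPM there and Ptger4 at 67.1, 154 and 60.8 CPM. The log2 ratio of AngII to Vehicle was 2.75 in resident macrophages and 1.97 in class II-high cells for Ccl8, and 2.26 and 1.22 for Il1b. Whether these ratios differ between the cell classes was not tested.

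Of 24 measured genes on the cytokine and NF-kB list, 20 were higher in AngII, 9 of them at least 1.5-fold, and 4 were lower, with a median log2 ratio of 0.47. Il1rn, the interleukin 1 receptor antagonist, was at 15.9, 57.0 and 23.0 CPM, and Nfkb1, an NF-kB subunit, at 516, 988 and 514 CPM. Tnf, at 353, 234 and 264 CPM, went the other way. Il1rn, Il6 and Tnip3 passed the 20 CPM limit only through AngII, so a higher level in AngII was fixed by that limit. Of 16 chemokines, 6 were higher and 10 lower, with a median of -0.20: Ccl12, a monocyte attractant of the mouse, was at 252, 513 and 156 CPM, while the abundant Ccl2 was at 6594, 5060.1 and 2946 CPM and the neutrophil attractant Cxcl1 at 464, 259 and 210 CPM. Receptors differed less. Of 21 receptors for growth factors, cytokines and microbial products, 19 were higher and 2 lower, with a median of 0.21 and 3 past 1.5-fold: Il4ra, the interleukin 4 receptor, was at 51.5, 102 and 95.1 CPM and Tnfrsf1b at 104, 163 and 106 CPM, and the third, Cx3cr1, was at 20.7, 32.4 and 25.7 CPM.

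**Figure D3:**
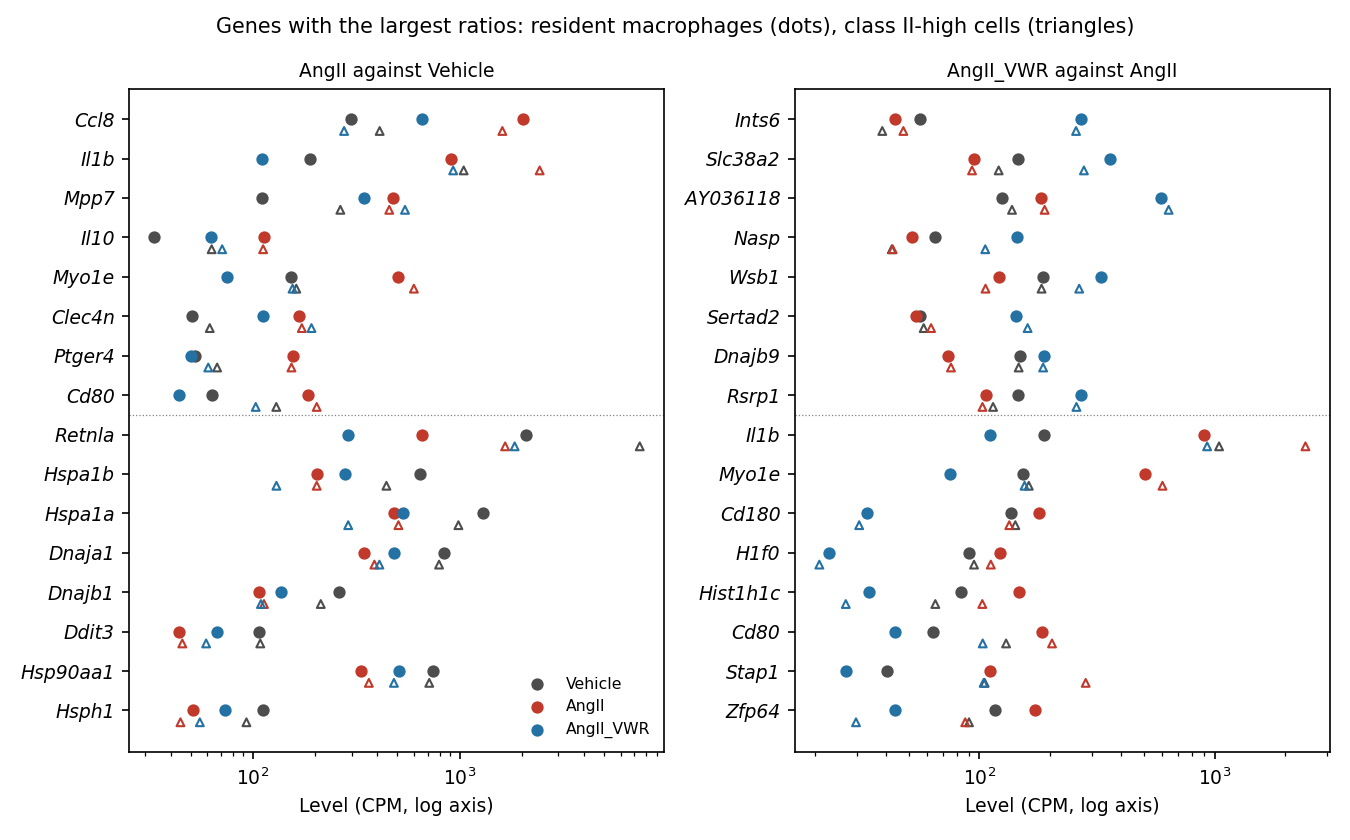
Level of the 8 genes with the highest and the 8 with the lowest ratio in each comparison, above and below the dotted line, as CPM on a log axis. Filled dots are resident macrophages and open triangles class II-high cells, coloured by library, each 1 library's summed UMIs. Il1b and Myo1e in resident macrophages are highest in AngII and lowest in AngII_VWR, and Ints6 is several times higher in AngII_VWR than in both other libraries.

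Of the 8 lowest ratios 6 were those of stress-induced chaperones. All 18 measured genes of the heat shock list were lower in AngII than in Vehicle, 11 of them at least 1.5-fold, with a median log2 ratio of -0.66. Most of the list is cytosolic, but it also holds the mitochondrial chaperonin genes Hspd1 and Hspe1. Heat shock genes are induced by heat shock factor when proteins misfold. Hspa1a was at 1294, 479 and 533 CPM and its near-identical copy Hspa1b at 641, 205 and 280 CPM, and reads of the pair may be split between them. Dnaja1, an Hsp40 co-chaperone, was at 841, 346 and 483 CPM, 0.41 times as high in AngII (0.40 to 0.42), and Dnajb1 was at 260, 107 and 137 CPM. Hsp90aa1, the inducible Hsp90, was at 742, 335 and 507 CPM, and Hsph1, an Hsp110, at 112, 51.1 and 73.2 CPM. Hspb1, at 211, 29.1 and 75.2 CPM, is among the genes that other barcodes carry more of. Vehicle was the highest library for each of these, and AngII the lowest.

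Sequences of 3 of these promoters are shown because they hold the binding motif of heat shock factor. RefSeq promoters (GRCm38.p6, 250 bases before to 50 after a gene's start) were found for 14 of the 18 genes and searched for 3 adjoining repeats of GAA and TTC in turn, each 2 bases from the next, on both strands. The motif was in 4 of the 14 (28.6%) and in 179 of 27025 genes with a promoter (0.66%). Hspe1 and Hspd1, which encode the mitochondrial chaperonin pair, share 1 stretch between them, so 2 of the 4 matches are the same site. In the lines below, capitals mark the motif, and overlapping matches run together. The stretches lie at chr1:55088029-55088106 (plus strand), chr9:18292233-18292315 (plus strand) and chr5:149636266-149636330 (minus strand).
Hspe1: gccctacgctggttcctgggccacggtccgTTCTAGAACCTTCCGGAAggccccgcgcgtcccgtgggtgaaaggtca
Chordc1: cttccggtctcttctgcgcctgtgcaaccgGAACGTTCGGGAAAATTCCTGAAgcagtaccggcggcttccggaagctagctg
Hsph1: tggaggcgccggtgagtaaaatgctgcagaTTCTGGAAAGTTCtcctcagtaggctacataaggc
Hspe1 was at 148, 112 and 143 CPM, Hspd1 at 141, 83.9 and 118 CPM, and Chordc1, an Hsp90 co-chaperone, at 79.9, 52.6 and 61.2 CPM. A match is a description of these letters and does not show that the factor was bound.

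Immediate early genes, which cells switch on within minutes of a stimulus, were mostly lower as well. Of 24 measured, 19 were lower in AngII, 12 of them at least 1.5-fold, and 5 were higher, with a median of -0.60. Fos, a subunit of the transcription factor AP-1, was at 3767, 1845 and 2273 CPM, and Atf3 at 2256, 1080 and 606 CPM. Klf2, at 1850, 884 and 804 CPM, and Rhob, at 639, 313 and 460 CPM, were also lower in both libraries with the hormone. Nr4a2 and Nr4a3, nuclear receptors of the same early kind, were higher in AngII, at 104, 205 and 135 CPM and at 164, 273 and 179 CPM.

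The unfolded protein response, by which the endoplasmic reticulum adds chaperones, was lower too. Of 18 measured genes 17 were lower in AngII, 7 at least 1.5-fold, with a median of -0.43. Creld2 and Hyou1, both past 1.5-fold, passed the 20 CPM limit only through Vehicle, so their direction was fixed by that limit. Hspa5, the main chaperone of that compartment, was at 1354, 702 and 931 CPM, its co-chaperone Dnajb9 at 148, 73.3 and 188 CPM, and the stress factors Ddit3 and Atf4 at 107, 44.1 and 67.4 CPM and at 167, 92.6 and 184 CPM. The same groups were lower in class II-high cells, with medians of -0.61 for heat shock, -0.78 for immediate early and -0.59 for unfolded protein response genes. In collagen-high cells the medians were -0.25, 0.16 and -0.72, so for the immediate early genes the direction there was the opposite.

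Retnla, which encodes a secreted protein of alternatively activated macrophages, had the lowest ratio of the genes at 100 CPM or more that members carry, at 2088 CPM in Vehicle, 655 in AngII and 289 in AngII_VWR, 0.31 times as high in AngII (0.31 to 0.32). In class II-high cells it was at 7423, 1659 and 1844 CPM. Of 9 measured genes of alternative activation, 3 were higher in AngII and 6 lower: Mgl2, a galactose lectin, was at 706, 460 and 559 CPM, and Klf4 at 1358, 795 and 721 CPM. Hmox1, the enzyme that breaks down haem, was at 900, 523 and 568 CPM. Of 16 measured genes of iron and haem handling 10 were higher and 6 lower, with a median of 0.08. Haemoglobin RNA was higher in the Vehicle cells, as given above, and its part in the Hmox1 result was not tested.

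Genes of resident identity differed in both directions. The 6 rule markers were all lower in AngII than in Vehicle, as given above, but the rule chose the members by them, so this is a description. Of 24 genes of resident macrophages that the rule did not use, 12 were higher and 12 lower in AngII, with a median of -0.05, with 1 higher and 3 lower past 1.5-fold. Igf1, a growth factor, was at 312, 557 and 323 CPM. Cd209d and Cd209b, lectins close in sequence to Cd209f, were at 72.0, 41.0 and 56.9 CPM and at 50.2, 31.4 and 46.8 CPM. F13a1, coagulation factor XIII, was at 3735, 3967 and 3917 CPM and Gas6, a bridge to dying cells, at 712, 735 and 782 CPM. Of 18 scavenger and lectin receptors 9 were higher and 9 lower, with a median of -0.02. In class II-high cells of the same libraries the identity list had a median of -0.43, with 21 of 24 lower. That class was not chosen by markers, and the 6 rule markers summed to 2623 CPM there in Vehicle and 1054 CPM in AngII. Its make-up may thus differ between the libraries, and the part of this in the median was not tested.

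The comparison of AngII_VWR with AngII asks what differed with running under the hormone. Among 3750 genes 97 (2.59%) had 2 times the AngII level or more in AngII_VWR and 75 (2%) had 0.5 times that level or less, and the median gene differed by 0.06. Among 3561 genes at or above 0.5 times the level of other barcodes, 39 were higher (1.1%) and 75 lower (2.11%). At 1.5-fold, 7.12% were higher and 6.93% lower. Among the 6612 genes past the limit of the gene groups, 9.01% lay past 1.5-fold on the higher side and 5.61% on the lower side, and 61.3% were higher and 38.7% lower by any amount. Scaling with TMM factors, a trimmed mean over genes, moved all log2 ratios by -0.17 and gave 70 higher and 131 lower, and median-of-ratios scaling gave 86 and 92. The AngII_VWR cells were shallower and held more fibroblast RNA, as above, and that library was processed with another version of the counting software. Whether intronic reads were counted, in either version, is not given in the sources used here, and a difference there would alter the CPM values of AngII_VWR. Their part in the results was not tested.

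Il1b had the lowest ratio among genes at 100 CPM or more. It was at 906 CPM in AngII and 111 in AngII_VWR, 0.12 times as high (0.12 to 0.13). Il1a was at 38.2, 84.1 and 14.1 CPM in Vehicle, AngII and AngII_VWR. Of 24 genes of the cytokine and NF-kB list 21 were lower in AngII_VWR, 15 at least 1.5-fold, and 3 were higher, with a median of -0.78. Il1a, Il6 and Tnip3 passed the 20 CPM limit only through AngII, so a lower level in AngII_VWR was fixed by that limit. Tnfaip3, a brake on NF-kB, was at 327, 382 and 188 CPM and Cd83 at 2345, 2520.0 and 1333 CPM. Nfkbia, the NF-kB inhibitor, was at 1400.2, 1125 and 1674 CPM and so went the other way. Il1b, Il1a, Tnfaip3 and Cd83 were lower in AngII_VWR than in Vehicle too.

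Of 16 chemokines 12 were lower in AngII_VWR, 9 at least 1.5-fold, with a median of -0.74. Ccl8 was 0.33 times as high (0.32 to 0.34). Ccl12 was 0.30 times as high (0.29 to 0.32) and Cxcl10, an interferon-induced ligand for T cells, was at 58.8, 99.1 and 18.8 CPM. Ccl24, an eosinophil attractant made by resident macrophages, was at 1639, 1121 and 491 CPM. Ccl6 was higher, at 1878, 1628 and 2520.1 CPM. Cxcl12, at 25.3, 11.9 and 63.2 CPM, is a gene that other barcodes carry more of. Cxcl10 passed the 20 CPM limit only through AngII and Cxcl12 only through AngII_VWR, so their direction was fixed by that limit. In class II-high cells the medians were -0.77 for chemokines and -0.55 for cytokines, and in collagen-high cells they were 0.03 and -0.22.

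Interferon-induced genes were lower as well. Of 14 measured 12 were lower in AngII_VWR, 9 at least 1.5-fold, with a median of -0.77. Ifit1, Ifit3, Oas1a, Rsad2, Xaf1 and Zbp1 passed the 20 CPM limit only through AngII. For these genes a lower level in AngII_VWR was fixed by that limit. Rsad2, viperin, an antiviral enzyme, was at 85.5, 59.1 and 8.81 CPM, 0.15 times as high in AngII_VWR as in AngII (0.12 to 0.19). Isg15, a ubiquitin-like protein, was at 84.4, 55.0 and 20.2 CPM and Oasl2 at 58.5, 52.2 and 31.7 CPM. Ifih1, a sensor of viral RNA, was at 48.2, 62.9 and 34.7 CPM. Rsad2 RNA was found in 5.0%, 2.7% and 1.2% of thinned members, against 1.1%, 0.2% and 0.1% of collagen-high cells. Against Vehicle, AngII was lower by a median of -0.31 over 17 of these genes in the resident macrophages. Of the 17, Ifit2, Irf7 and Usp18 passed the limit only through Vehicle. The same genes had a median of 0.23 in class II-high cells, and whether these medians differ was not tested. With cells thinned to 2000 UMIs the median in the resident macrophages was 0.05.

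Sequences are shown for 3 interferon-induced genes because their promoters carry the core of the interferon-stimulated response element, searched as GAAA, any 2 bases and GAAA on both strands. Promoters were found for 14 of the 20 listed genes, of which 8 held the core (57.1%), against 1079 of 27025 genes (3.99%). Overlapping matches run together in capitals. The stretches lie at chr4:156200845-156200926 (minus strand), chr12:26456533-26456602 (minus strand) and chr19:34640755-34640843 (plus strand).
Isg15: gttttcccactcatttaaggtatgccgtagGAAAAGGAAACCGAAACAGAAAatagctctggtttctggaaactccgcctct
Rsad2: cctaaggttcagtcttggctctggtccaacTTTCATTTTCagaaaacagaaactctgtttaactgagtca
Ifit1: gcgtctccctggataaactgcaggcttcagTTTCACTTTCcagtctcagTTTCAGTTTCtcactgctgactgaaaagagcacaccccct
Ifit1 was at 40.2, 32.3 and 7.31 CPM in Vehicle, AngII and AngII_VWR. Stat2 and Bst2, which also carry the core, were at 34.3, 26.3 and 28.6 CPM and at 230, 218 and 219 CPM, so a match did not go with a lower level in every gene.

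Antigen presentation genes were lower in the AngII_VWR library. All 7 measured genes outside the rule were lower in AngII_VWR than in AngII, 5 at least 1.5-fold, with a median of -0.78. Cd74 was at 2278, 2503 and 1211 CPM, Cd86, a co-stimulatory ligand, at 1853, 2265 and 1322 CPM, and H2-DMb1, which loads class II, at 70.6, 76.5 and 44.1 CPM. Cd80 was 0.24 times as high (0.22 to 0.26). In class II-high cells the median over the same genes was also -0.78, with 7 of 7 lower. In collagen-high cells it was 0.39, with 6 of 7 higher. Because the rule capped 3 class II genes, the levels of Cd74 and H2-DMb1 in members are bounded by it.

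Chaperones of the endoplasmic reticulum were higher in the AngII_VWR library than in AngII. Of 18 genes of the unfolded protein response 17 were higher in AngII_VWR, 8 at least 1.5-fold, with a median of 0.53. Creld2 and Hyou1 passed the 20 CPM limit only through AngII_VWR, so a higher level there was fixed by that limit. Dnajb9 was 2.56-fold higher (2.37 to 2.78) and Manf, a secreted stress protein, was at 234, 143 and 338 CPM, 2.37-fold higher (2.24 to 2.51). Sdf2l1 was at 102, 91.5 and 173 CPM, and Atf4 was 1.98-fold higher (1.84 to 2.14). Dnajb9, Manf, Sdf2l1 and Atf4 were each higher in AngII_VWR than in Vehicle too, while Hspa5 stayed below Vehicle. The medians were 0.72 in class II-high and 0.60 in collagen-high cells. The heat shock list had a median of 0.35, with 17 of 18 higher and 3 at least 1.5-fold.

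Promoters of this group are shown for the element that the stress factors ATF6 and XBP1 are known to use. It was searched as CCAAT and CCACG with 9 bases between them, on both strands. Of 17 listed genes with a promoter 7 held it (41.2%), against 37 of 27025 genes (0.14%). The stretches lie at chr2:34771995-34772073, chr12:17266461-17266539 and chr15:88819490-88819568, all on the plus strand.
Hspa5: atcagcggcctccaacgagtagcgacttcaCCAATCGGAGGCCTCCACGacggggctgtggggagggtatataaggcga
Pdia6: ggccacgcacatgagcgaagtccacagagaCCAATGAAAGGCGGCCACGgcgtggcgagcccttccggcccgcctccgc
Creld2: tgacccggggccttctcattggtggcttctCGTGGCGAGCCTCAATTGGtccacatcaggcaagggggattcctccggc
Pdia6, a disulfide isomerase, was at 203, 178 and 266 CPM and Creld2 at 31.9, 19.0 and 32.5 CPM. Dnajb9, with the highest ratio of the group, did not hold these letters in the window searched.

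Other genes with the largest ratios on the higher side were not chaperones. Ints6, a subunit of the Integrator complex that ends transcription of short RNAs, was at 55.8, 43.6 and 270 CPM, 6.20-fold higher in AngII_VWR than in AngII (5.66 to 6.80). Slc38a2, an amino acid carrier, was at 146, 94.99 and 358 CPM. Wsb1, Rsrp1, Nasp and Sertad2 were each between 2.53-fold and 2.79-fold higher. The transcript AY036118 was 3.25-fold higher (3.10 to 3.41). All of them were higher in class II-high cells as well, with Ints6 at 38.6, 47.4 and 258 CPM there. Cd180, a Toll-like receptor relative, and the linker histone genes H1f0 and Hist1h1c were lower, at 136, 179 and 33.2 CPM, at 90.3, 123 and 22.8 CPM and at 83.5, 147 and 33.8 CPM, and in class II-high cells too, where H1f0 was at 94.8, 112 and 20.8 CPM. Reads of Hist1h1c may be shared with close histone copies.

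Glucocorticoid-induced genes were split. Of 13 measured 8 were higher in AngII_VWR and 5 lower, with a median of 0.24, and 6 were at least 1.5-fold higher. With TMM scaling that median was -0.03. The shift of -0.17 in all log2 ratios would alone leave it above 0, so the set of genes past the level limit changed too. Fkbp5, a co-chaperone of the glucocorticoid receptor, was at 230, 233 and 507 CPM, Zbtb16 at 115, 134 and 290 CPM, Tsc22d3, an anti-inflammatory leucine zipper protein, at 524, 386 and 677 CPM, and Sgk1, a kinase, at 26.2, 34.7 and 66.2 CPM. Per1, also a target of the receptor, was at 88.5, 84.4 and 80.4 CPM, and the metallothionein Mt1 was lower, at 1814, 1605 and 1067 CPM. In class II-high cells 10 of the same 13 genes were higher, with a median of 0.61.

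Growth factors were lower in AngII_VWR in 8 of 10 measured genes, 3 of them at least 1.5-fold, with a median of -0.36. Bmp2, a bone morphogenetic protein, was at 237, 216 and 73.6 CPM, Areg, an EGF receptor ligand, at 44.1, 67.9 and 18.1 CPM, and Igf1 was at 312, 557 and 323 CPM. Areg and Pdgfa passed the 20 CPM limit only through AngII, so their direction was fixed by that limit. Of the 24 resident identity genes 9 were higher and 15 lower, with a median of -0.05. Maf, a transcription factor of tissue macrophages, was at 718, 812 and 1217 CPM. Receptors for growth factors and cytokines were lower in 16 of 21, with a median of -0.15, among them Csf1r, the receptor that macrophages need to survive, at 1104, 1333 and 840 CPM. The matrix list had a median of 0.36, but 7 of its 17 measured genes, Sparc, Fn1 and Timp3 among them, are ones that other barcodes carry more of.

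**Figure D4:**
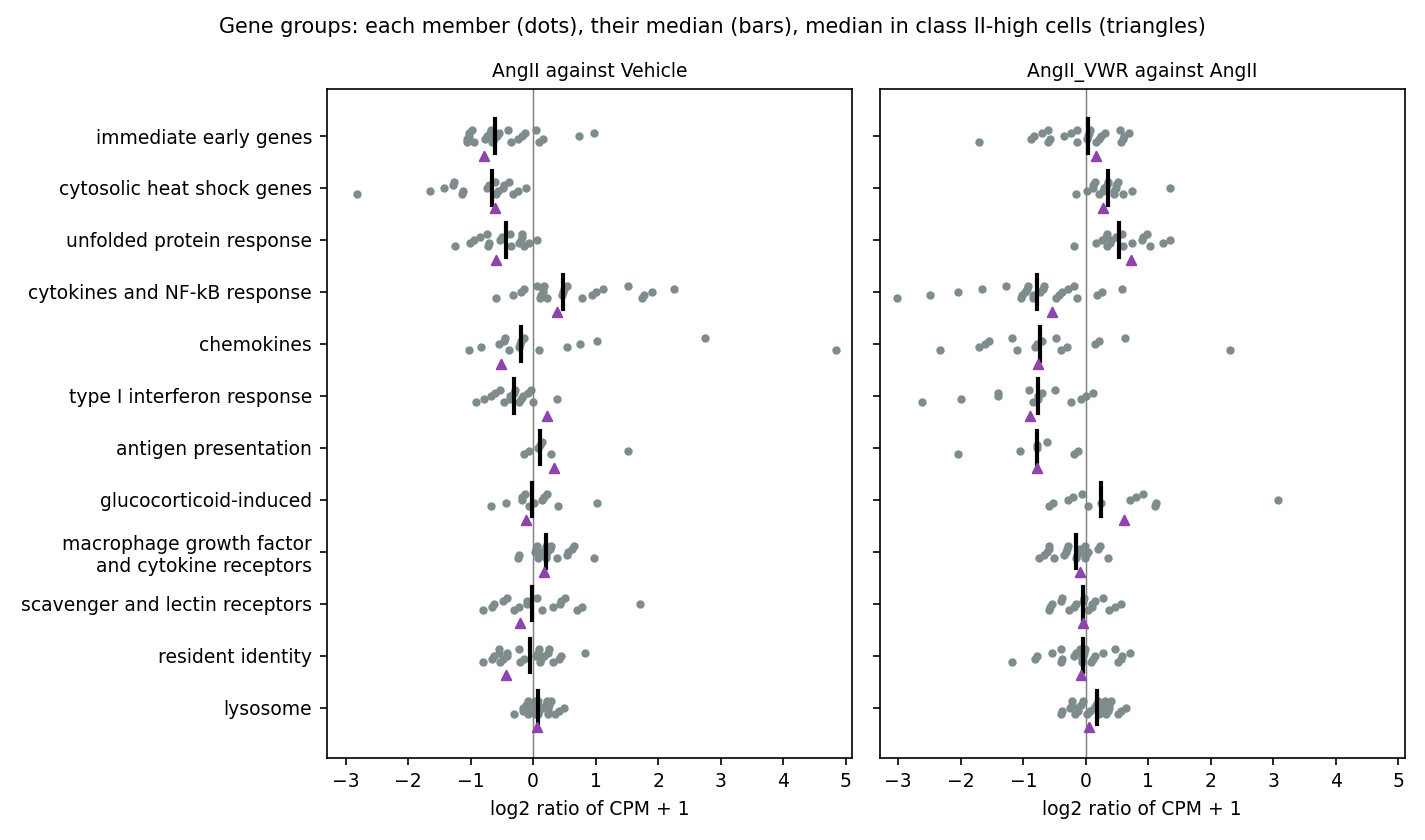
log2 ratio of CPM + 1 for each measured gene of 12 gene groups (dots) and their median (bars) in resident macrophages, for AngII against Vehicle (left) and AngII_VWR against AngII (right), with the median of the same genes in class II-high cells (triangles). In the left panel heat shock and unfolded protein response genes lie mostly below 0 and cytokines mostly above it. In the right panel cytokines, chemokines, interferon-induced and antigen presentation genes lie mostly below 0 and unfolded protein response genes above.

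The gene groups also differed from cell to cell. After thinning to 2000 UMIs, the median Vehicle member had 62 UMIs of immediate early genes, with 5% of cells under 16 and 5% over 115, while AngII and AngII_VWR members had medians of 39 and 41. Heat shock genes had medians of 16, 9 and 11 UMIs and chemokines 46, 43 and 31 UMIs. Cytokine and NF-kB genes had medians of 15, 18 and 13 UMIs. The scavenger and lectin receptors had a median of 13 in every library. The ranges of cells overlapped widely between libraries for every group.

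**Figure D5:**
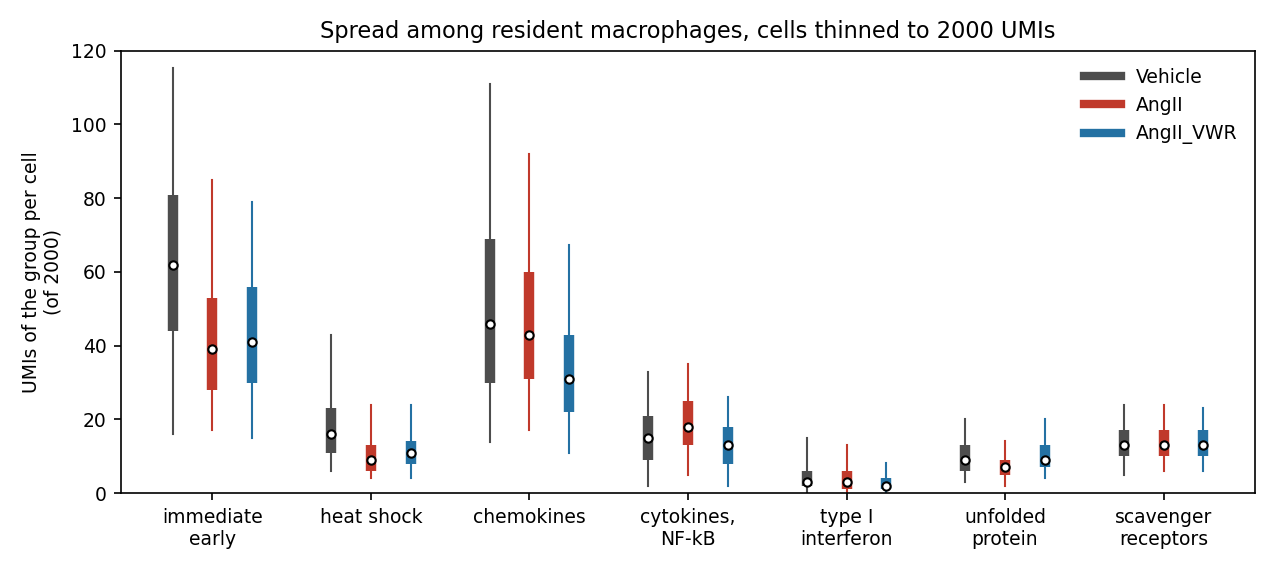
UMIs of each gene group per resident macrophage after thinning every cell to 2000 UMIs. Dots are medians over cells, thick bars run from the 25th to the 75th percentile and thin lines from the 5th to the 95th, by library. The medians of scavenger receptors are level at 13 UMIs, and those of immediate early genes are highest in Vehicle.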

How the data were processed

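The authors deposited, for each of 3 libraries, a matrix of raw UMI counts per gene and barcode, made with Cell Ranger 7.0.1 (Vehicle, AngII) and 7.1.0 (AngII_VWR), per the file headers, against mm10, per the submitters' processing notes. The files hold 15093, 10515 and 19633 barcodes. Counts of members were summed per library and divided by their total (CPM). Ratio intervals are exact conditional Poisson intervals, and shares have Clopper-Pearson intervals. Called means a ratio of CPM + 1 of at least 2 at 50 CPM and 50 UMIs or more in the higher library. List medians use genes at 20 CPM or more there, with at least 10 UMIs in the pair. The calculation was tested on simulated counts.

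The members and the 27 gene lists were chosen with earlier results of these data known. Named were the rule's genes, the 8 highest and 8 lowest ratios at 100 CPM or more (without mitochondrial, ribosomal, haemoglobin, immunoglobulin and predicted genes, and with at least 0.5 times the level of other barcodes), up to 4 genes of each list with the largest ratios at 50 CPM, and 10 and 6 genes against class II-high cells. Others in the text, mostly list members under that limit or of smaller ratio, were chosen after their values were seen. Doublets were not removed: Scrublet's own threshold marked 248, 135 and 0 barcodes, so it did not work for AngII_VWR, and its highest scores were removed only as an alternative. Python 3.11.15, numpy 2.4.6, scipy 1.17.1, scanpy 1.11.5 and edgeR 4.0.16 (TMM factors only) were used.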

Additional observations from a re-analysis of the deposited data

How the results depend on the processing

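No paired analysis was possible because each group is 1 library. For the ratio of shares, AngII over Vehicle was 0.55 with at least 2 of 6 markers, 0.405 with 4, 0.548 with class II under 2% and 0.372 after thinning. AngII_VWR over AngII was 1.38, 0.919 (the direction turned), 1.03 and 1.496 under the same settings. It was 1.29 with collagen under 0.1% (added after seeing the data) and 1.03 over all filtered barcodes.

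The number of genes at least 2-fold higher, AngII over Vehicle, was 47 as reported, 171 at 1.5-fold, 106 at 10 CPM, 15 at 200 CPM and 185 with no filter on level. The number of genes at least 2-fold lower, AngII over Vehicle, was 69 as reported and 164, 273, 20 and 592 under these settings. It was 41 after thinning, 30 without the highest Scrublet scores and 42 with 5% free RNA subtracted. Under 2 settings added after seeing the data it was 33 (collagen under 0.1%) and 17 (genes at 0.5 times other barcodes or more). Genes at least 2-fold higher, AngII_VWR over AngII, numbered 97 as reported, 267, 386, 23 and 891 under the same fold and level settings, and 64 and 39 under the added ones. Genes at least 2-fold lower, AngII_VWR over AngII, numbered 75 as reported, 260, 148, 28 and 272 under the fold and level settings, and 131 with TMM scaling.

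Of the 27 lists, 3 had a median of at least 0.5 in size for AngII over Vehicle, and 1 after thinning, where the list cell cycle, AngII over Vehicle, turned from 0.62 to -0.062. Over 18 alternatives, the medians of heat shock genes (-0.72 to -0.60 and 0.10 to 0.41), unfolded protein response genes (-0.47 to -0.36 and 0.35 to 0.58) and cytokine genes (0.38 to 0.48 and -0.95 to -0.67) kept their direction in both comparisons. The interferon list for AngII over Vehicle ran from -0.38 to 0.05 and glucocorticoid-induced genes for AngII_VWR over AngII from -0.03 to 0.49, each with 17 of 18 in the reported direction. The cause of these shifts was not tested.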

Other observations

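Mki67, a marker of cycling cells, was at 34.9 CPM in Vehicle, 78.0 in AngII and 35.7 in AngII_VWR, and had a UMI in 2.9%, 6.0% and 4.1% of members thinned to 2000 UMIs, against at most 0.1% of collagen-high cells. Top2a, the topoisomerase of dividing cells, was at 24.6, 51.5 and 25.5 CPM. AngII had the higher level for all 10 measured cell cycle genes against Vehicle, while 9 of 10 were lower in AngII_VWR than in AngII. Of all genes past the same limit, 55.8% were higher in the first comparison and 38.7% lower in the second. Some of the 10 genes passed the 20 CPM limit only through AngII, so their direction was fixed by it. At such levels most thinned cells have no UMI of these genes, so the shares of thinned members do not limit the share of cycling cells. The direction of the list turned with thinning in the first comparison, as given above.

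Some genes varied far more between members of a library than most. The Fano factor, the variance of thinned counts over their mean, had a median of 1.09 in Vehicle, 1.09 in AngII and 1.08 in AngII_VWR over 2830 genes with a mean of at least 0.1 UMI in each library. Retnla had 28.1, 29.4 and 17.4, and Ccl8 had 5.31, 22.5 and 8.73. The chemokines Ccl4, Cxcl2, Ccl2, Ccl7, Ccl12 and Ccl3 were also among the 12 genes whose lowest value over the 3 libraries was highest. So were Malat1, Apoe, Cd74 and Lyz2. Means were not matched with those of the 2830 genes: Malat1 had means of 46.1, 28.5 and 38.1 UMIs. Spic, a transcription factor of macrophages that recycle iron, was at 51.0, 42.8 and 12.6 CPM, and Cd93, a receptor linked to uptake of dying cells, at 29.8, 81.0 and 86.8 CPM.

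Of 11 genes around angiotensin receptors 4 were measured, with medians of -0.04 for AngII over Vehicle and 0.20 for AngII_VWR over AngII. Atp6ap2, the prorenin receptor, was at 272, 226 and 282 CPM and Agtrap, which binds the type 1 angiotensin receptor, at 55.5, 50.5 and 53.1 CPM. Of 26 nerve-related genes 8 were measured for AngII over Vehicle. The semaphorin receptors Nrp1 and Nrp2 were at 271, 313 and 386 CPM and at 246, 312 and 263 CPM.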
